A study of Solanum pimpinellifolium with 6 samples.

Results

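The aquaporin genes of the wild currant tomato Solanum pimpinellifolium (strain LA1589) were followed in fruits collected 2 days post anthesis (dpa). Every gene whose deposited name contains the word aquaporin was taken, which gave 47 of the 34723 genes with values. The fruits came from hand-pollinated flowers of plants labelled as 2 months old. One group held 3 libraries labelled RNAi line 207, transgenic plants with a silencing construct against SlZFP2, a zinc finger transcription factor. The other held 3 libraries labelled nontransgenic sibling, with the genotype wild type. Line 207 is a single transgenic line, the promoter that drives its construct is not given in the sources used here, and no treatment or other transgene is named for either group. The question is how the transcripts of young fruits differ between the transgenic plants and their sibling. P-values measure the spread between the 3 libraries of a group, which the series design calls biological replicates.

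Aquaporins are membrane channels of the major intrinsic protein family, and they let water, and some of them small neutral solutes, cross a membrane along its gradient. In plants the family is divided by sequence into plasma membrane intrinsic proteins (PIPs), tonoplast intrinsic proteins (TIPs) of the vacuole membrane, NOD26-like intrinsic proteins, small basic intrinsic proteins (SIPs) and a further uncharacterised group. Young fruits grow by cell division and then by cell expansion, in which water enters the vacuole, and the hormone abscisic acid, whose synthesis the series design calls defective in line 207, is known to act on aquaporin genes in other plant tissues. The table names most members only as aquaporin, so no subfamily or substrate is given below for a gene whose deposited name does not carry one.

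The labels and the libraries were read first. SlZFP2 (Solyc07g053570) read 10.3, 9.03 and 7.45 FPKM across labelled line 207, against 2.89, 3.05 and 0.00147 FPKM in labelled siblings (limma, Benjamini-Hochberg adjusted p = 0.112). FPKM are fragment numbers scaled to the length of the gene and the depth of the library. Silencing of the gene's own transcript would give the opposite order. Whether transcript of the construct is counted at this gene, or the labels are exchanged, was not tested and cannot be told apart here. Each group is therefore named here by its label and each direction is one between labels. The tissue label, fruit, stands beside a protocol label that names shoot tips. Of 5 carpel and ovule genes, 3 passed the filter on low values, and the AGAMOUS gene (Solyc02g071730) was at 60.6 to 90.6 FPKM in labelled line 207 and at 16.7 to 24.4 FPKM in labelled siblings. CRABS CLAW (Solyc01g010240) was listed at 0 in 5 of the 6 libraries, and the ovule gene TAGL11 (Solyc11g028020) was at or near 0 in the same number. Solyc05g005240, with the deposited name CRABS CLAW-like protein, was listed here as the ovule gene INO. It read 6.52, 20.6 and 12.8 FPKM across labelled line 207, against 4.68, 3.11 and 8.81 FPKM in labelled siblings. A second Agamous gene (Solyc07g055920) read 72.0, 70.9 and 0.0124 FPKM across labelled line 207, against 28.2, 0.000922 and 30.9 FPKM in labelled siblings. The summed level of 19 shoot meristem genes was 254 to 325 FPKM in labelled line 207 and 219.5 to 267 FPKM in labelled siblings. Relative depth, with labelled sibling replicate 1 as 1, was 0.384, 0.497 and 0.777 in labelled line 207 and 0.796 and 0.865 in the other labelled siblings. Low values are therefore least precise in labelled line 207 replicates 1 and 2.

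The level of the family was carried by few genes. The 3 most abundant were Solyc08g081190 and Solyc11g069430, both named Aquaporin 1, and Solyc06g074820, named aquaporin-like protein. Together they made up 75.6% to 76.6% of the summed aquaporin FPKM in the libraries labelled line 207 and 63.7% to 70.9% in those labelled sibling. By their mean over the 6 libraries, 7 members lay above 100 FPKM, 12 between 10 and 100, 12 between 1 and 10 and 8 above 0 and up to 1. The remaining 8 were listed at 0 in every library.

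**Figure D1:**
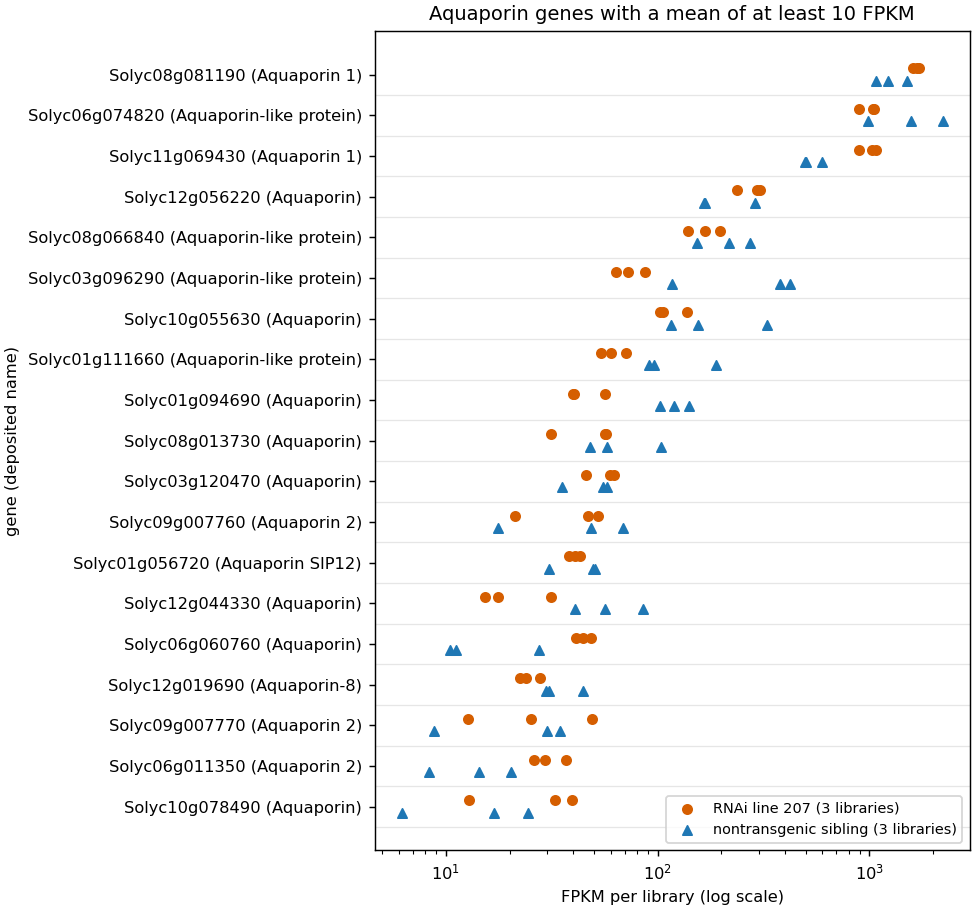
FPKM (log axis) of the 19 aquaporin genes with a mean of at least 10 FPKM, with line 207 libraries as circles above and sibling libraries as triangles below in each row, named by label and ordered by mean. The circles of Solyc11g069430 lie to the right of its triangles and those of Solyc01g094690 to the left, whereas the symbols of Solyc09g007760 overlap.

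By summed FPKM, the family as a whole was at a similar level in both groups. Summed over the 47 genes, the libraries labelled line 207 held 4503, 5023 and 4979 FPKM and the libraries labelled sibling 5365, 4849 and 4844 FPKM. The sums averaged 4835 ± 288 FPKM in labelled line 207 and 5020 ± 299 FPKM in labelled siblings (SD, n = 3 each), and the groups overlapped. All FPKM in a library summed to between 785040 and 924466 in labelled line 207 and between 1054762 and 1179445 in labelled siblings. As a share of all FPKM in a library, the aquaporin sums were 0.498% to 0.634% in labelled line 207 and 0.411% to 0.509% in labelled siblings. The mean share was 0.559% in labelled line 207 and 0.458% in labelled siblings, so the comparison depends on the scaling. In bulk tissue, fewer cells of a type and less RNA per cell cannot be told apart.

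The make-up of that sum differed by label. Solyc11g069430 gave 20.0%, 21.5% and 20.6% of it in labelled line 207, against 9.36%, 10.2% and 12.3% in labelled siblings, with no overlap. Solyc08g081190 gave 35.7%, 33.5% and 34.7% in labelled line 207, against 20.2%, 25.2% and 31.0% in labelled siblings, also with no overlap. Solyc06g074820 gave 19.9%, 20.8% and 21.3% in labelled line 207, a narrow range, and 41.4%, 32.6% and 20.3% in labelled siblings, where it was widely scattered and reached into the range of line 207. The 44 members below these 3 summed to 1162 ± 59.3 FPKM in labelled line 207 and to 1625 ± 117 FPKM in labelled siblings (SD, n = 3 each). Every sum of these 44 in labelled line 207, from 1101 to 1219 FPKM, lay below every labelled sibling, from 1552 to 1760 FPKM. All FPKM in a library also summed lower in labelled line 207, so this comparison too depends on the scaling. Among the 44, Solyc03g096290 differed most in mean FPKM (74.4 in labelled line 207 against 306 in labelled siblings). Solyc12g056220 went the other way (278 against 206). Shares of a sum depend on one another, and no test was made of them.

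**Figure D2:**
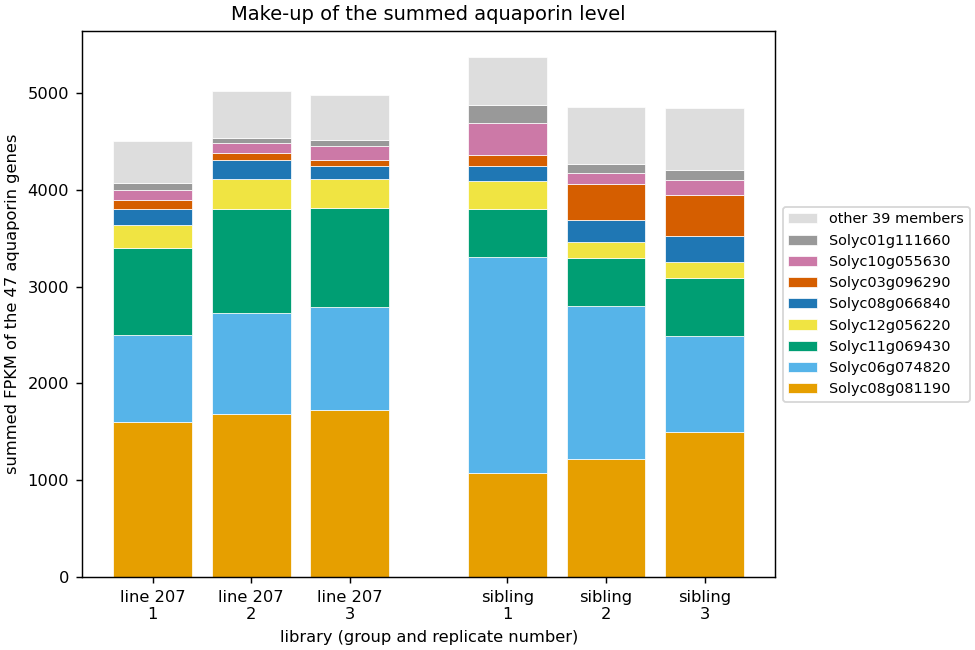
Stacked FPKM of the 47 aquaporin genes in each library, line 207 at the left and sibling at the right by label, with the 8 most abundant genes in colour and the other 39 in light grey. The bars reach similar heights, 4503 to 5023 FPKM in line 207 and 4844 to 5365 FPKM in the siblings, while the segment of Solyc11g069430 is larger in line 207 and that of Solyc03g096290 is large in sibling replicates 2 and 3.

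Differences between labels were tested with limma on log2(FPKM + 1) over 15766 genes with at least 1 FPKM in 3 or more libraries, and a gene was called at a Benjamini-Hochberg adjusted p of at most 0.05. Of the 47 aquaporin genes 31 passed the filter. By label, line 207 was higher in 3 of these and lower in 1, which is 12.9% of the 31, where 10.1% of all tested genes were called. Among all tested genes 5.01% were called higher and 5.04% lower. At an unadjusted p under 0.05 there were 4 members higher and 6 lower (32.3%), against 26.2% of all tested genes. Of the 31 members, 23 were at 1 FPKM or more in all 6 libraries, 4 passed with only the labelled sibling group complete and 1 with only the labelled line 207 group complete. That 1 gene, Solyc10g083880, is among the 3 called higher. The median log2 fold change was -0.36 over the 31 members and -0.09 over all tested genes. The members' median was -0.07 over the 19 with a mean of at least 10 FPKM, -0.17 without labelled sibling replicate 3 and -0.55 without labelled sibling replicate 1. With quantile normalization or upper quartile scaling, 3 members were called higher and 2 lower. Without labelled line 207 replicate 1 or replicate 2 the number called was 2, and without any 1 of the line 207 libraries 1 member was called higher. Without labelled sibling replicate 1 or labelled line 207 replicate 3, 2 were called lower.

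Among the 3 called as higher in labelled line 207, the abundant Solyc11g069430, whose name Aquaporin 1 was taken from an onion protein, was at 899, 1081 and 1028 FPKM across labelled line 207, against 502, 496 and 595 FPKM in labelled siblings. Each line 207 library lay above each sibling library, and replicates within a group lay close together. The ratio of means was 1.89 (log2 fold change 0.92 ± 0.18 by SE, with an adjusted p of 0.0239 in limma). The call held without labelled sibling replicates 1 or 3 and was lost without any 1 of the remaining 4 (limma adjusted p of 0.0917 at most). It was also lost in limma with 1 prior for all genes (adjusted p = 0.0787) and with the replicate number as a block (0.0612).

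Solyc06g060760, an aquaporin gene named after a sunflower protein, was at 48.7, 41.3 and 44.3 FPKM across labelled line 207, against 10.4, 27.6 and 11.1 FPKM in labelled siblings. The line 207 values lay within a narrow band above all siblings, of which replicate 2 was the highest. The ratio of means was 2.74 (log2 fold change 1.53 ± 0.38 by SE, with an adjusted p of 0.0496 in limma). The call lay at the threshold, held without labelled sibling replicate 2 (adjusted p = 0.0196) and was lost without any 1 of the remaining 5 (limma adjusted p of 0.131 at most). It was also lost with 0.1 added before the logarithm (adjusted p = 0.058), with no filter (0.105), with 1 prior for all genes (0.0884) and with the replicate number as a block (0.0896).

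Solyc10g083880 had signal in labelled line 207 alone. It was at 7.18, 24.2 and 16.0 FPKM in those libraries and was listed at 0 in all 3 libraries labelled sibling, although these were the deeper ones. The log2 fold change was 3.92 ± 0.57 (SE, limma adjusted p = 0.00963), and its size depends on the 1 added before the logarithm (7.15 with 0.1 added). This gene passed the filter only through its labelled line 207 values, so the filter already favoured a difference, and its p adds no separate support. With any 1 library left out the limma adjusted p was 0.0385 at most. The filter was not redone in those fits, so they add no separate support either. Its name was taken from the same database protein as those of 3 other members. Of these, Solyc06g075650 was at 3.03 to 9.59 FPKM across the 6 libraries, Solyc03g019820 had signal in 1 library labelled line 207 only (1.76 FPKM), and Solyc06g072130 was listed at 0 throughout.

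One member was called lower. Solyc01g094690, named after a protein of the common ice plant, was at 56.6, 40.1 and 39.9 FPKM across labelled line 207, against 141, 103 and 119 FPKM in labelled siblings. No line 207 library reached the lowest sibling. Its mean was 2.65-fold lower in labelled line 207 (log2 fold change -1.39 ± 0.21 by SE, with an adjusted p of 0.0105 in limma). The call held whichever library was left out, with adjusted p between 0.0212 and 0.045.

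**Figure D3:**
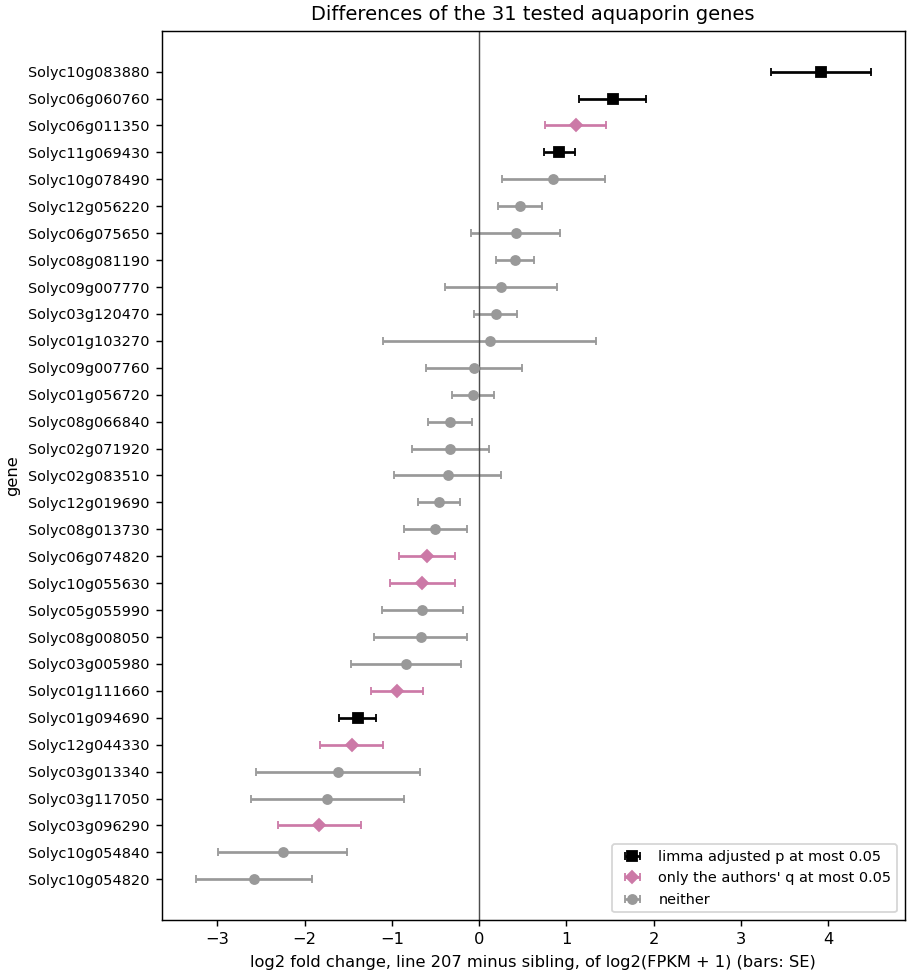
Log2 fold change (line 207 minus sibling, by label, on the log2(FPKM + 1) scale) with its SE for the 31 tested aquaporin genes, ordered from high to low. Black squares are the 4 genes called by limma, diamonds the 6 genes called by the authors' deposited q alone, and grey circles the rest.

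In 12 of the 31 members the groups were without overlap (38.7%), against 33.2% of all tested genes. Line 207 lay above in 5 members (16.1%, against 15.6% of all tested genes) and below in 7 (22.6%, against 17.6%). The 5 include Solyc10g083880, and the 7 include Solyc10g054820 and Solyc10g054840. These genes passed the filter only through the group where they were higher, so the filter already favoured a lack of overlap in them. The 5 above were the 3 called genes with Solyc08g081190 and Solyc06g011350. The most abundant member, Solyc08g081190, whose name Aquaporin 1 came from a tobacco protein, was at 1607, 1681 and 1726 FPKM across labelled line 207, against 1081, 1221 and 1503 FPKM in labelled siblings. The groups were separate by a small gap, the ratio of means was 1.32, and the gene did not pass (log2 fold change 0.41 ± 0.22 by SE, with an adjusted p of 0.293 in limma).

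The authors' deposited table tested 21 of the 47 members and calls 10 at a q of at most 0.05 (47.6%), where it calls 28.4% of all the genes it tested. By group means, labelled line 207 was above in 4 of the 10 and below in 6, and among all genes 12.8% were called higher and 15.6% lower. The 10 include all 4 limma calls. Both tests read the same libraries, so the shared calls are not independent.

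For the other 6, the mean of labelled line 207 was above that of the siblings in 1 and below it in 5. Solyc03g096290, an aquaporin-like gene named after a petunia protein, was at 87.2, 72.7 and 63.3 FPKM across labelled line 207, against 117, 378 and 424 FPKM in labelled siblings. The groups were separate, and sibling replicate 1 lay far below the other siblings. The log2 fold change was -1.83 ± 0.48 (SE), which did not pass in limma (adjusted p = 0.0558). In the authors' deposited table the q is 0.000439. Without labelled sibling replicate 1 the log2 fold change was -2.42 and the gene passed (limma adjusted p = 0.00416).

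Solyc12g044330, named after a tung tree protein, was at 15.3, 17.7 and 31.3 FPKM across labelled line 207, against 84.9, 56.5 and 40.8 FPKM in labelled siblings. All line 207 values lay below all sibling values. The log2 fold change was -1.46 ± 0.36 (SE), with a limma adjusted p of 0.0502 and a q of 0.000823 in the authors' deposited table. It passed in limma without labelled line 207 replicate 3 (adjusted p = 0.0493).

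Solyc01g111660, a second aquaporin-like gene named after a petunia protein, was at 70.9, 54.0 and 60.1 FPKM across labelled line 207, against 189, 91.1 and 95.7 FPKM in labelled siblings (limma adjusted p = 0.0991). The groups did not overlap, and here sibling replicate 1 was the highest library. Solyc10g055630, named after a tobacco protein, was at 106, 103 and 137 FPKM across labelled line 207, against 329, 116 and 155 FPKM in labelled siblings (limma adjusted p = 0.328). Its sibling replicate 1 again stood above, and the other siblings reached into the line 207 range.

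Solyc06g074820, an aquaporin-like gene named after a pepper protein, was at 896, 1043 and 1058 FPKM across labelled line 207, against 2219, 1581 and 985 FPKM in labelled siblings (limma adjusted p = 0.291). The sibling values spread over more than their distance to line 207, and the groups overlapped. The q for this gene in the authors' deposited table is 0.0207. Solyc06g011350, named Aquaporin 2, was at 29.4, 36.8 and 26.1 FPKM across labelled line 207, against 8.35, 14.4 and 20.3 FPKM in labelled siblings (limma adjusted p = 0.0954). It was the 1 gene of these 6 with a higher mean in labelled line 207, and its groups did not overlap.

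**Figure D4:**
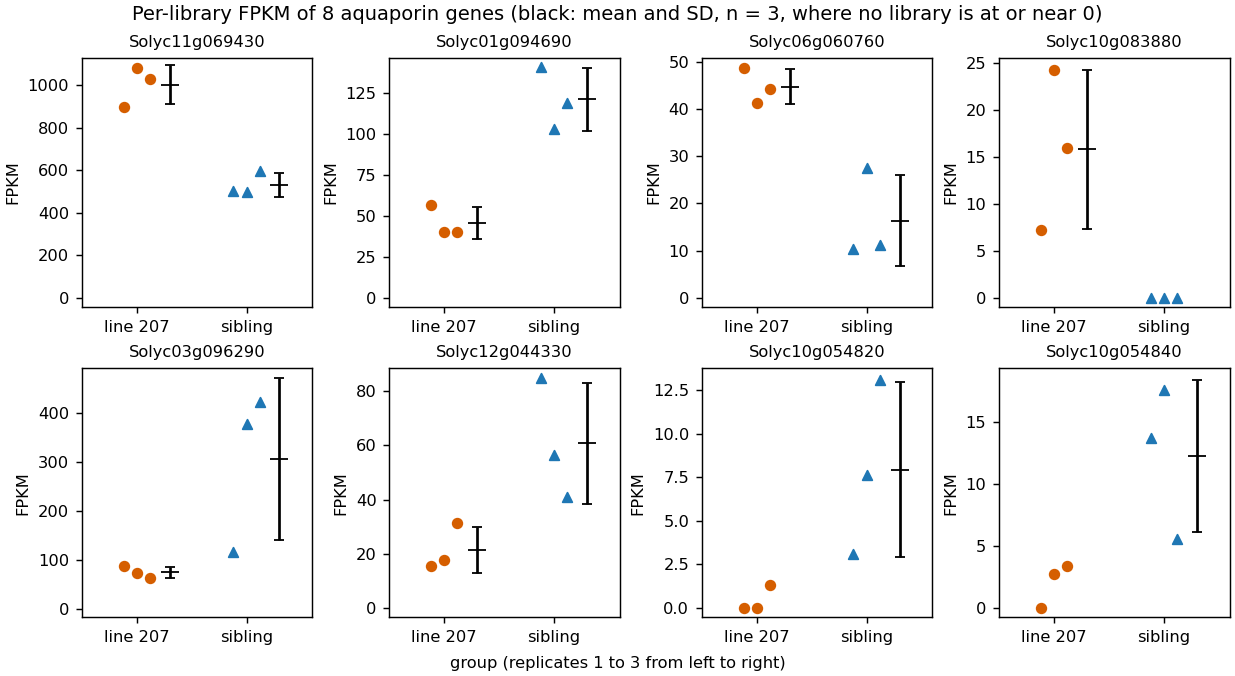
FPKM per library of 8 aquaporin genes, line 207 at the left and sibling at the right by label, replicates 1 to 3 from left to right, with mean and SD in black where no library is at or near 0. The upper row holds the 4 genes called by limma, and in the lower row Solyc03g096290 shows the low value of sibling replicate 1, 117 FPKM against 378 and 424 FPKM.

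Ratios between members within a library do not change when all its values are scaled by 1 factor, though quantile normalization can change them. The pairs given here were chosen after their values were seen and were not tested. Solyc11g069430 stood at 1.0, 1.04 and 0.971 times Solyc06g074820 in labelled line 207, against 0.226, 0.314 and 0.604 times in labelled siblings. Solyc12g044330 stood at 0.315, 0.429 and 0.705 times Solyc06g060760 in labelled line 207, against 8.18, 2.05 and 3.68 times in labelled siblings. The order in level of this second pair was thus opposite in the 2 sets of libraries.

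By deposited name, 4 members were aquaporin-like proteins, and all 4 had a negative log2 fold change, with a median of -0.77 and 0 limma calls. Of these, Solyc08g066840, named after a spruce protein, was at 167, 198 and 139 FPKM across labelled line 207, against 153, 218 and 274 FPKM in labelled siblings (limma adjusted p = 0.469), with overlap. The 4 genes named Aquaporin 2 share 1 database protein, of the rain tree, and their log2 fold changes went both ways, at 1.11 for Solyc06g011350, 0.25 for Solyc09g007770, -0.06 for Solyc09g007760 and -0.65 for Solyc05g055990, with 0 limma calls and 1 by the authors' q. The neighbours Solyc09g007760 and Solyc09g007770 among them were at 12.7 to 52.5 FPKM in labelled line 207 and at 8.74 to 68.5 FPKM in labelled siblings. Near-identical neighbours can share reads in an FPKM estimate, so the split between them is uncertain.

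Names with a subfamily were rare. Solyc01g056720, named SIP12 after a cotton protein of the small basic group, was at 42.9, 40.5 and 38.0 FPKM across labelled line 207, against 30.8, 49.4 and 50.8 FPKM in labelled siblings (limma adjusted p = 0.874). The line 207 values lay inside the sibling range. Solyc01g103270, named PIP1-3 after an Arabidopsis plasma membrane protein, was at 8.39, 7.66 and 0.000123 FPKM across labelled line 207, against 0.000117, 4.10 and 11.5 FPKM in labelled siblings (limma adjusted p = 0.963). In each group 1 library was near 0, unlike the others, and its direction turned when single libraries were left out.

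The name Aquaporin Z, of a bacterial water channel, was given to 5 members after bacterial proteins, and 2 of these were listed at 0 throughout. Solyc02g071920 was at 8.79, 5.06 and 7.71 FPKM across labelled line 207, against 6.11, 8.64 and 13.8 FPKM in labelled siblings (limma adjusted p = 0.691). Its neighbour Solyc02g071910 was one of those at 0. Solyc03g013340 was at 4.34, 0 and 0 FPKM across labelled line 207, against 10, 6.19 and 0.968 FPKM in labelled siblings (limma adjusted p = 0.335), and its groups overlapped. The members share a protein domain as well as a name, with 1 exception. By the domain recorded in the table, 31 members had the aquaporin domain and 15 the wider major intrinsic protein domain. Limma called 4 of the 23 tested genes with the aquaporin domain and 0 of the 8 tested with the wider domain, where 10.1% of all tested genes were called, and the difference between the 2 domains was not tested. Solyc01g111010 is named aquaporin, but the domain recorded for it is that of the small auxin-up proteins, and it stayed at 0.868 FPKM or below.

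On chromosome 10, 5 members lie close together in gene numbering, from Solyc10g054790 to Solyc10g054840. Solyc10g054820 was at 0, 0 and 1.32 FPKM across labelled line 207, against 3.10, 7.61 and 13.1 FPKM in labelled siblings (log2 fold change -2.58 ± 0.67 by SE, with an adjusted p of 0.0556 in limma). Solyc10g054840 was at 4.75e-05, 2.75 and 3.43 FPKM across labelled line 207, against 13.7, 17.6 and 5.56 FPKM in labelled siblings (log2 fold change -2.25 ± 0.74 by SE, with an adjusted p of 0.107 in limma). Both had all line 207 values below all sibling values, neither passed, and both were named after their values were seen. Their values at or near 0 fell in labelled line 207 replicates 1 and 2, which had the lowest relative depth (0.384 and 0.497). In both, only the labelled sibling group was at 1 FPKM or more in every library, so the filter already favoured a difference. Of the other 3, Solyc10g054790 had signal in 1 library labelled line 207 only (1.47 FPKM), and Solyc10g054800 and Solyc10g054810 were listed at 0 throughout.

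Among the 16 members that did not pass the filter, 8 had signal in some library, up to 3.88 FPKM, and none reached 1 FPKM in more than 2 libraries. Solyc06g066560, at 1.72 FPKM in labelled sibling replicates 2 and 3 and listed at 0 elsewhere, was one of them. The 7 members named after 1 Arabidopsis protein were mostly of this kind. Of these 7, 2 passed the filter, Solyc08g013730 (31.3, 57.1 and 56.6 FPKM across labelled line 207, against 47.8, 57.9 and 104 FPKM in labelled siblings) and Solyc03g117050, and 2 were listed at 0 throughout.

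Replicates of the family were more alike within labelled line 207 than within the labelled siblings. Over the 19 members with a mean of at least 10 FPKM, the median coefficient of variation (SD over mean) was 16.1% in labelled line 207 and 38.7% in labelled siblings. It was larger in the siblings for 16 of these 19 genes. Over all 7847 genes with such a mean and at least 1 FPKM in every library, the medians were 21.0% in labelled line 207 and 22.4% in labelled siblings, and the siblings had the larger one for 52.4%. These figures describe 3 libraries a group and were not tested. Of the 23 members at 1 FPKM or more in every library, labelled line 207 replicate 2 was the highest library for 7 and the lowest for 5. Labelled sibling replicate 1 was the highest for 5 and the lowest for 8, and labelled sibling replicate 3 the highest for 6 and the lowest for 1.

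Genes that set the gradients water follows were read from lists of words in the deposited names. Proton pumps energise the plasma membrane and the vacuole membrane, and potassium channels and transporters move the main osmotic ion. Of 29 tested proton pump genes, 1 was higher and 3 lower in labelled line 207 (limma, over all genes), with a median log2 fold change of -0.45. That is 13.8% called, where 10.1% of all tested genes were (5.01% higher and 5.04% lower). The authors' q calls 6 of the 19 they tested, 0 of them higher (31.6%, against 28.4% of all genes they tested). Line 207 lay below the siblings without overlap in 14 of the 29 (48.3%), against 17.6% of all tested genes. The 4 called genes all encode subunits of the vacuolar proton ATPase and are named here after their values were seen. The vacuolar ATPase subunit H gene (Solyc07g005940) was at 66.3, 63.9 and 67.2 FPKM across labelled line 207, against 141, 107 and 104 FPKM in labelled siblings (limma adjusted p = 0.0303). The subunit E gene (Solyc08g081910) was at 51.3, 53.7 and 77.0 FPKM across labelled line 207, against 113, 113 and 95.7 FPKM in labelled siblings (limma adjusted p = 0.0477). A proteolipid subunit gene (Solyc10g054560) was at 124, 134 and 99.2 FPKM across labelled line 207, against 233, 195 and 188 FPKM in labelled siblings (limma adjusted p = 0.0359). In these 3 genes every line 207 library lay below every sibling. The higher gene, for subunit a (Solyc06g075400), was at 3.9, 8.67 and 4.52 FPKM across labelled line 207, against 5.83e-08, 1.14 and 0.0131 FPKM in labelled siblings (limma adjusted p = 0.0496). It passed the filter only through its labelled line 207 values, so the filter already favoured a difference, and it is not among the authors' calls. The list called 0 genes without labelled sibling replicates 2 or 3 or line 207 replicate 2, and 1 without any of the other 3. Of 22 tested potassium genes 0 were called by limma, where 10.1% of all tested genes were, and 3 had an unadjusted p under 0.05, all higher (13.6%, against 26.2% of all tested genes). The authors' deposited table calls 4 of the 11 it tested (36.4%, against 28.4% of all genes it tested). Without labelled sibling replicate 1 limma called 1. The median of the list was 0.1. Other names of major intrinsic proteins, such as tonoplast intrinsic or NOD26, matched 0 further genes. The small basic intrinsic protein 1-2 gene (Solyc10g078500), whose name these words do not match, was at 7.38e-05 FPKM or less. It neighbours Solyc10g078490, a member at 32.7, 39.4 and 12.9 FPKM across labelled line 207, against 16.8, 6.17 and 24.4 FPKM in labelled siblings (limma adjusted p = 0.419).

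Genes whose deposited names hold words tied to other tissue were read in 2 lists. Such a name does not show that a gene marks that tissue. Of the 12 tested shoot meristem genes limma called 0, where 10.1% of all tested genes were called. At an unadjusted p under 0.05 there were 3 (25.0%, against 26.2% of all tested genes). The authors' q calls 2 of the 6 they tested (33.3%, against 28.4% of all genes they tested). The sums of this list, given above, overlapped between the groups. Of 21 tested pollen and anther genes 4 were lower and 0 higher in labelled line 207 (19.0% called, against 10.1% of all tested genes, 5.04% lower), with a median log2 fold change of -1.53. Of the 4, Solyc05g051870 was at 0, 6.97 and 2.19 FPKM across labelled line 207, against 29.1, 21.4 and 22.6 FPKM in labelled siblings. Only its labelled sibling group was at 1 FPKM or more in every library, so the filter already favoured a difference. The groups did not overlap in 10 of the 21 (47.6%, against 33.2% of all tested genes). The authors' q calls 5 of the 16 they tested, 0 of them higher (31.2%, against 28.4% of all genes they tested). The summed level of all 40 such genes was 808 to 852 FPKM in labelled line 207 and 1394 to 1622 FPKM in labelled siblings. The number called was 1 without labelled sibling replicate 3 or line 207 replicate 3 and 2 without any 1 of the other libraries. The gene with the most signal among those called, named pollen allergen Phl p 11 (Solyc04g054810), was at 352 to 377 FPKM in labelled line 207 and at 727 to 920 FPKM in labelled siblings. Of the 40 pollen and anther genes 7 were listed at 0 in all libraries. The part of a different tissue make-up in the aquaporin values was not tested.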

How the data were processed

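One table was deposited by the authors, and its values for each gene in each library are taken as FPKM: TopHat 1.3.2 and Cufflinks appear per the submitters' processing notes, and the values are neither whole nor of constant sum. The sources used here state no unit, genome build, annotation or scaling between libraries. The same deposited table gives the authors' p-value and q-value, with 1 taken as not tested. It has 34727 rows, 4 of them empty. Libraries are stranded mRNA libraries, per the labels' protocols.

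Members and lists were chosen with earlier results of these data known. Differences of log2(FPKM + 1) were tested in R 4.3.3 with limma 3.58.1, whose prior followed the mean level, in 1 fit on all 15766 genes with at least 1 FPKM in 3 libraries, and p-values were adjusted over all of them. That scale understates changes of low genes. The fit was checked on simulated data. Read depth is unknown. Relative depth is the most frequent ratio between low values of 2 libraries. Values near 0 can be failed estimates, so no mean, SD or ratio is given for a group with such a value. Gene identifiers are those of the table, and no reference sequences or coordinates were used here. SlZFP2 and the carpel and ovule genes were matched to identifiers by general knowledge.

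Genes named with values are those called by limma or by the authors' q, the 2 most abundant of each name class and any gene listed at 0 in a whole group and at 1 FPKM or more in the other. Further genes were named after their values were seen.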

Additional observations from a re-analysis of the deposited data

How the results depend on the processing

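Tests of 3 libraries a group with unknown read depth limit what can be called, and low members most. The 4 aquaporin calls became 2 with 1 prior for all genes and 2 with the replicate block, and 10 by the authors' q. They ranged from 2 to 4 with 1 library left out. Higher calls, 3 in all, became 1 with 1 prior, 1 with the block, and 1 to 2 with a library left out. The 1 lower call became 3 with a mean of at least 10, 2 with quantile normalization, 2 with upper quartile scaling, 6 by the authors' q, and 1 to 2 with a library left out. Calls over all genes went to 894 with the block, to 2722 by the authors' q and to between 706 and 1219 with a library left out, from 1585. The replicate numbers share only a number: deviations of same-numbered libraries correlated at 0.00397, -0.00806 and -0.0105. No library correlated best with its own number, and the cause of the lost calls was not tested.

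Proton pump calls, 4 in all, became 2 with 0.1 added, 1 with no filter, 2 with quantile normalization, 1 with 1 prior, 0 with the block and 0 to 1 with a library left out. Potassium calls, 0 in all, became 1 with no filter, 1 with a mean of at least 10, 4 by the authors' q, and 0 to 1 with a library left out. Pollen and anther calls, 4 in all, became 2 with no filter, 1 with 1 prior, 1 with the block and 1 to 2 with a library left out. Shoot meristem calls, 0 in all (3 at an unadjusted p under 0.05), became 2 by the authors' q. SlZFP2 passed under none of its 12 limma alternatives, with log2 fold changes of 1.31 to 2.32 with a library left out.

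Among the 31 tested members, the direction turned for 5, all by leaving out 1 library. With 1 library left out, the log2 fold change of Solyc01g056720 lay between -0.3 and 0.05, above 0 without sibling replicates 2 or 3. That of Solyc01g103270 lay between -0.88 and 1.17, below 0 when sibling replicate 1, line 207 replicate 1 or line 207 replicate 2 was omitted. The log2 fold change of Solyc03g120470 lay between -0.03 and 0.32, that of Solyc09g007760 between -0.61 and 0.34 and that of Solyc09g007770 between -0.34 and 0.71. The other 26 tested members kept their direction under the alternatives run, and genes that are no members were not refitted one by one, apart from SlZFP2. No shift of the median of all genes by quantile or upper quartile scaling exceeded 0.1 on the log2 scale.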
